A study of Mus musculus with 5 samples.

Results

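The chaperonin and heat shock protein genes measured here are the subunits of the cytosolic chaperonin (gene symbols Tcp1 and Cct2 to Cct8), the heat shock proteins named Hsp, and the J-domain co-chaperones named Dnaj. They were picked by symbol alone, from probe sets whose platform annotation gave 1 gene symbol, and each gene was read from its probe set with the highest mean over the arrays. The choice gave 70 of the 12393 genes on the array: 9 in the Cct group, 23 in the Hsp group and 38 in the Dnaj group. The symbol pattern also brought in Hspbp1, a nucleotide exchange factor for Hsp70, and Hspb11, an intraflagellar transport protein, neither of which is a heat shock protein by function. Hsp90ab1 and Dnajc19 were not analysed here.

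Chaperones bind unfolded proteins and keep them from clumping while they fold. The cytosolic chaperonin is a barrel of related subunits that encloses clients such as actin and tubulin, and a smaller mitochondrial barrel, Hspd1 with its lid Hspe1, does the same for imported proteins. Hsp70 proteins clamp short stretches of unfolded chain in a cycle that J-domain proteins start and exchange factors end, Hsp90 acts on nearly folded clients, and Hspa5 and Hsp90b1 do this work in the endoplasmic reticulum. Heat shock factor switches on the heat-inducible members through heat shock elements in their promoters, and the unfolded protein response switches on those of the endoplasmic reticulum.

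The study measured total RNA on Affymetrix arrays in 3 intestinal tumours of mice carrying the Apc1638N allele, a truncating mutation of the tumour suppressor Apc, and in 2 samples of intestinal mucosa from wild-type mice. All were males of the C57Bl6/J strain aged 8 months, and epithelial cells had been cut out by laser capture microdissection before RNA extraction. The tumours carry the sample numbers 16, 18 and 2 and the wild types 36 and 62, and values below always follow that order. The comparison sets tumour against wild-type mucosa from other animals, so the Apc allele and the tumour state cannot be told apart, and the sources used here do not say which part of the intestine was sampled, how tumours were staged or whether animals were pooled. Nothing in them says that the samples of a group are separate animals, so the p-values speak of the scatter among samples, which may be technical.

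Values are log2 signals, and a difference of 1 is a 2-fold change. A gene passed when limma's p-value, adjusted over all 12393 genes by Benjamini-Hochberg, was below 0.05. With 3 arrays against 2, the smallest p an exact permutation test can reach is 0.1, and the number of arrays limits precision. The array medians lay between 6.81 and 6.87, and the lower quartiles between 6.04 and 6.07. Epithelial markers were read in both groups: Epcam, an epithelial surface protein, read 11.20, 10.79 and 11.04 in tumours and 11.42 and 11.56 in wild types. Of 8 epithelial markers, Krt18 and Krt19 passed as higher and Vil1, a microvillus protein, as lower. Genes of dividing cells were higher in tumours, 7 of 11 passing, with list means of 8.79, 8.78 and 8.67 against 7.44 and 7.82. Fibroblast markers had list means of 8.43, 9.20 and 7.70 against 7.14 and 6.73, with 1 of 8 passing (Dcn) and tumour 18 highest, and those of smooth muscle 6.91, 7.05 and 6.84 against 6.69 and 6.55. Leukocyte markers passed as lower in 3 of 10 and as higher in 0. They did not share a direction, since 3 of the 10 had a higher tumour mean. The largest of these rises was Lyz2, by 1.67 (limma adjusted p = 0.0502). Of the endothelial markers, 0 of 6 passed in limma's test, with 1 at an unadjusted p below 0.05. The signal of the 3′ probes minus that of the 5′ probes, which widens when RNA is shortened or amplified from a small sample, was 3.999, 4.25 and 4.21 for beta-actin in tumours against 3.32 and 2.51 in wild types. The part of cell makeup, cell division or RNA length in the results below was not tested, and fewer cells of a type cannot be told apart from less RNA per cell.

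The cytosolic chaperonin genes were mostly higher in tumours, some Hsp genes rose while Hspa5 fell, and the Dnaj genes went both ways. Of the 70 members, 17 passed as higher in tumours and 5 as lower. Across all genes, 11.3% passed as higher and 10.5% as lower. In the Cct group 6 of 9 (66.7%) rose and 0 fell. In the Hsp group 6 of 23 (26.1%) rose and 1 fell, and without Hspbp1 and Hspb11 the counts were 5 and 1 of 21. The Dnaj group had 5 of 38 (13.2%) higher and 4 (10.5%) lower, a share near the background on each side.

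Counting genes whose tumour values all lay on one side of both wild types gave 28 members above and 10 below. The background for this looser count was 27% of all genes above and 23.7% below. All tumours lay above both wild types for 6 of 9 Cct genes, 13 of 23 Hsp genes (56.5%) and 9 of 38 Dnaj genes. The median difference, tumour minus wild type, was 0.85 on the log2 scale in the Cct group, 0.29 in the Hsp group and -0.01 in the Dnaj group, and 0.00 over all genes. Differences between the groups were described by these counts and medians and were not tested. No gene was left out for a low signal, and 6 members (Hspa1a, Hspa1l, Hspa12b, Dnajb3, Dnajb7 and Dnajc24) had a mean over the arrays below every array's lower quartile.

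**Figure D1:**
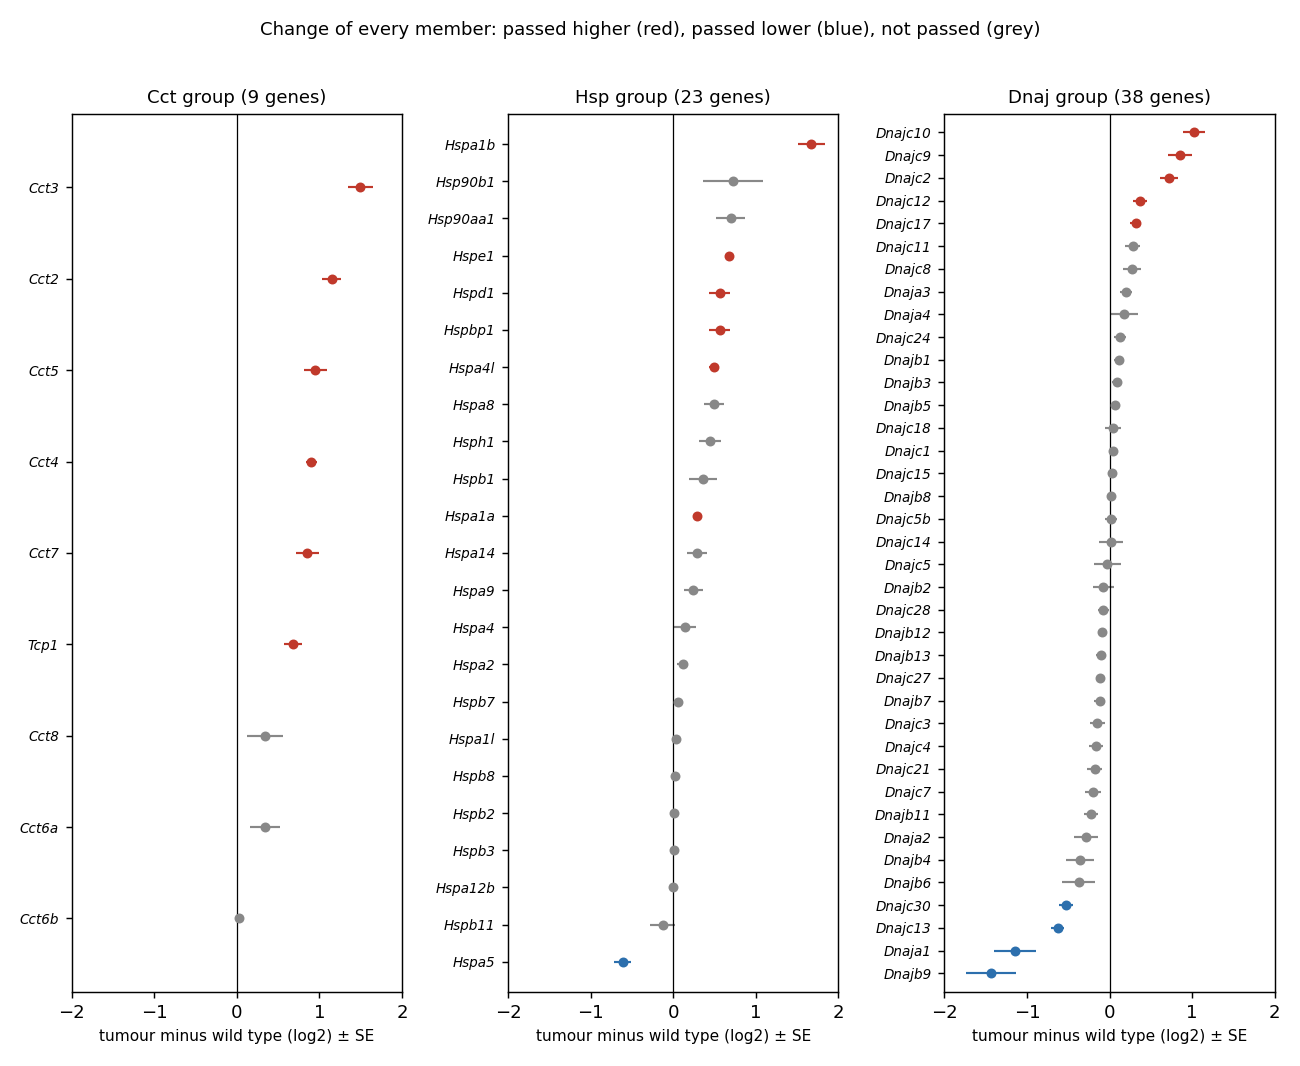
Difference between tumours and wild types in log2 signal (points, with the standard error from limma as bars) for each of the 70 members in the Cct, Hsp and Dnaj groups, coloured by whether the gene passed as higher, passed as lower or did not pass. Most Cct points lie right of 0, with Cct3 at 1.50, while the Dnaj column runs from Dnajc10 at 1.02 to Dnajb9 at -1.43.

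Array by array, the Cct group stood at like levels in the 3 tumours. Relative to each gene's wild-type mean, the median Cct gene stood at 0.81, 0.89 and 0.80 in tumours 16, 18 and 2 and at -0.15 and 0.15 in wild types 36 and 62. The median Hsp gene stood at 0.20, 0.26 and 0.36 in the tumours and within 0.01 of 0 in the wild types. For the Dnaj group every array lay between -0.07 and 0.05.

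**Figure D2:**
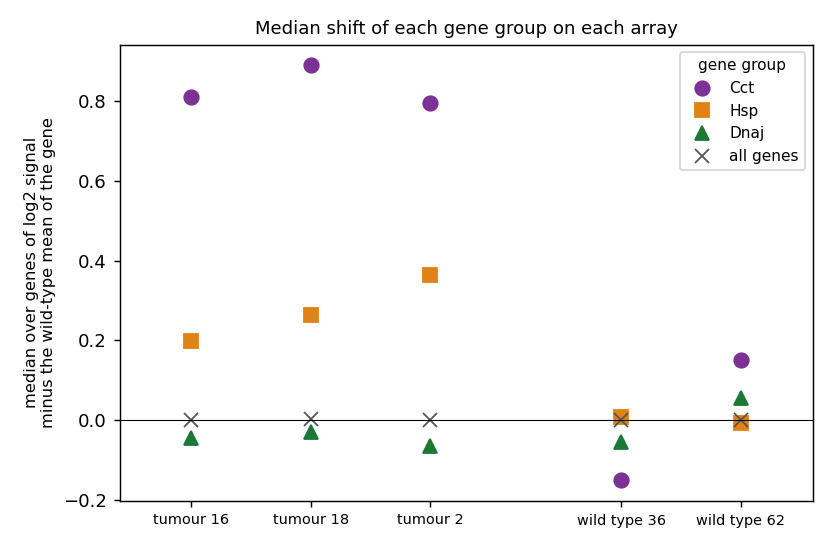
Median over the genes of each group of the log2 signal minus the gene's wild-type mean, on each of the 5 arrays, for the Cct, Hsp and Dnaj groups and for all genes. The Cct medians of the 3 tumours, 0.80 to 0.89, stand clear of the 2 wild types at -0.15 and 0.15, while the Dnaj medians stay near 0 on every array.

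Among the chaperonin subunits, Cct3 had the largest difference. Its log2 signal was 12.10, 12.21 and 11.78 in the tumours and 10.60 and 10.46 in the wild types. The lowest tumour therefore lay more than 1 log2 unit above the highest wild type, and the means were 12.03 ± 0.22 (SD, n = 3) and 10.53 ± 0.10 (SD, n = 2). Cct3 rose 2.82-fold (difference 1.50, SE 0.15, limma adjusted p = 0.00952). That probe set carries one of the name endings _a_at, _s_at or _x_at, which mark probes that match more than 1 transcript or gene, called shared targets below. The only Cct3 probe set without such an ending gave a difference of 0.18 (limma adjusted p = 0.0501). Its mean signal of 5.90 lay below the lower quartile of every array, which leaves the size of that difference uncertain. Cct2 read 10.78, 10.89 and 10.96 against 9.57 and 9.87, again with a wide gap between the groups, and rose 2.22-fold (difference 1.15, SE 0.11, limma adjusted p = 0.00945).

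Cct4 had the smallest standard error of the chaperonin genes that passed. Its tumours read 10.39, 10.55 and 10.50 and its wild types 9.53 and 9.62, and the difference was 0.90 (SE 0.07, limma adjusted p = 0.00582). Read from a probe set without shared targets, it was 0.54 (limma adjusted p = 0.110). Cct5 stood at 10.07, 10.26 and 9.97 in tumours and 8.99 and 9.31 in wild types, a difference of 0.95 (SE 0.14, limma adjusted p = 0.0192). In both genes every tumour lay above both wild types. Cct7 read 9.82, 9.83 and 9.74 against 8.74 and 9.15, with a difference of 0.85 (limma adjusted p = 0.0228), and Tcp1, the subunit that gave the complex its first name, read 9.69, 9.84 and 9.69 against 8.91 and 9.21, with a difference of 0.68 (limma adjusted p = 0.0234). In Cct2, Cct5, Cct7 and Tcp1 wild type 62 lay above wild type 36, so that the distance to the tumours depended on which wild type was taken.

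Cct6a, Cct8 and Cct6b did not pass. Cct6a read 9.17, 9.26 and 9.24 in the tumours and 8.60 and 9.17 in the wild types, so that wild type 62 was level with tumour 16 and only wild type 36 was lower (difference 0.34, limma adjusted p = 0.278). Cct8 read 6.46, 6.37 and 6.77 against 5.93 and 6.46, and wild type 62 lay among the tumours (difference 0.34, limma adjusted p = 0.337). Cct6b, a close relative of Cct6a known from testis, stayed near the lower quartile of the arrays at 6.06, 6.11 and 6.06 and 6.06 and 6.04.

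**Figure D3:**
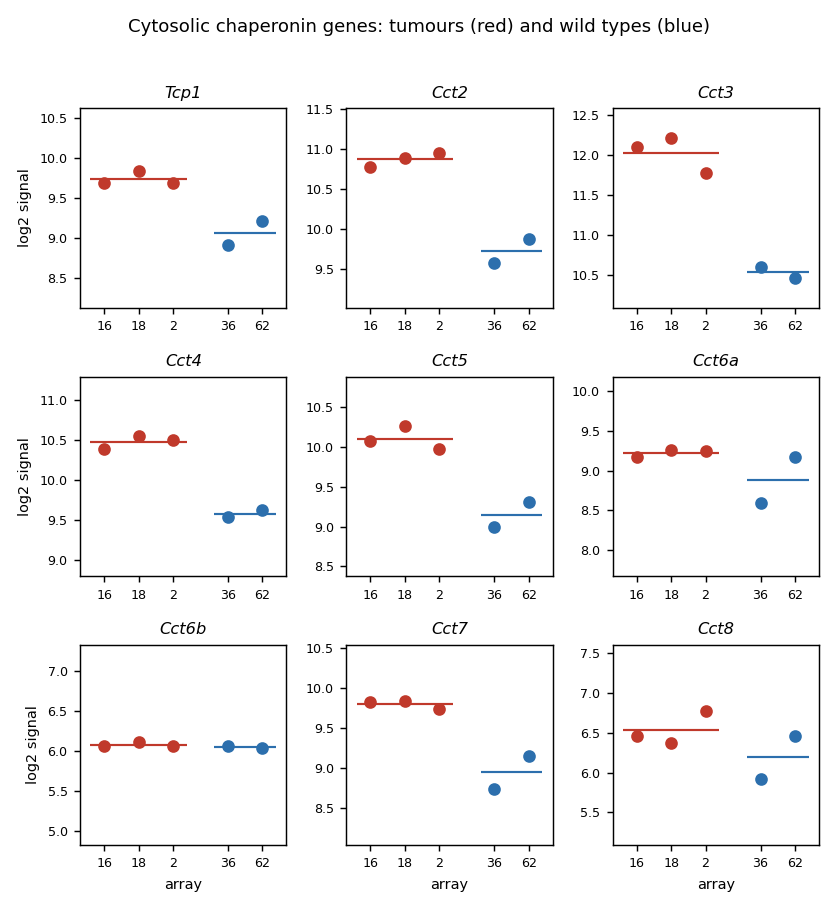
Log2 signal of the 9 chaperonin genes on each array (points), with the group mean as a line, tumours in red and wild types in blue; each panel has its own range of values and the same height in log2 units. In 6 panels the 3 tumours lie above both wild types, and in Cct6a, Cct6b and Cct8 the groups overlap.

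Promoter windows show what letters sit upstream of these genes. RefSeq windows on GRCm38.p6, from 250 bases before a gene's start site to 50 after it, were matched by symbol for 58 of the 70 members, 8 of them in the Cct group, 19 in the Hsp group and 31 in the Dnaj group. Each was searched on both strands for the heat shock element as 3 blocks (GAANNTTCNNGAA or TTCNNGAANNTTC), for its 2-block form GAANNTTC, which lies inside the longer one, for the endoplasmic reticulum stress element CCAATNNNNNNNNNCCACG, and for the E-box CACGTG, the letters that Myc proteins bind. The 3-block form was found in 0 of 8 Cct windows and in 4 of 58 members, against 0.662% of all 27025 genes with a window. The 2-block form was in 1 of 8 Cct genes, 8 of 19 Hsp genes and 4 of 31 Dnaj genes, against 9.04% of all genes. A match is a description of letters, not a measured site.

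The Cct2 and Cct3 windows are shown because these subunits differed most between tumours and wild types and only Cct2 held a match. The lines give the 250 bases before the listed start, 5′ to 3′ on the gene's strand, from chr10:117063376-117063625 on the minus strand for Cct2 (the downstream of the starts listed) and from chr3:88296885-88297134 on the plus strand for Cct3. Capitals mark the fixed letters of the 2-block heat shock element, which begins 42 bases before the Cct2 start, and Cct3 has none of the motifs searched.
Cct2: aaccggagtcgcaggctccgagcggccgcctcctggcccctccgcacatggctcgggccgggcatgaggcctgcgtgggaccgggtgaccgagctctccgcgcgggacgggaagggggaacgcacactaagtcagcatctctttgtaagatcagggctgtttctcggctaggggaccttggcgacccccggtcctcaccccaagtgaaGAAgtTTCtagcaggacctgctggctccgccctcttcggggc
Cct3: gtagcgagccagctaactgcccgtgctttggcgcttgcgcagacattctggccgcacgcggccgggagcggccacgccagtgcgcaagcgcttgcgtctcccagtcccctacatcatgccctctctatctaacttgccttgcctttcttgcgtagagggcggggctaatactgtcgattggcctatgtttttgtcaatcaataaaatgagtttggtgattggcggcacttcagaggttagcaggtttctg

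The mitochondrial chaperonin pair rose as well. Hspe1, the lid, read 9.18, 9.23 and 9.24 in tumours and 8.58 and 8.503 in wild types, with a spread of less than 0.1 within either group. Its difference of 0.67 (SE 0.04, limma adjusted p = 0.00520) had the smallest adjusted p of the members, but the Hspe1 probe set without shared targets gave 0.06 (limma adjusted p = 0.299). Hspd1, the barrel subunit also called Hsp60, read 10.47, 10.46 and 10.80 against 10.01 and 10.02, tumour 2 being the highest. It rose by 0.57 (SE 0.13, limma adjusted p = 0.0464), close to the threshold, and did not pass with array weights (adjusted p = 0.0526) or with a trended, robust prior (adjusted p = 0.0515). Hspa9, the mitochondrial Hsp70 that pulls proteins in through the inner membrane, read 8.60, 8.78 and 8.96 against 8.52 and 8.56 and did not pass (difference 0.25, limma adjusted p = 0.228).

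Hspe1 and Hspd1 lie next to each other on opposite strands of chromosome 1, and the window of Hspe1 shares 285 bases with the window of an Hspd1 start. The Hspe1 sequence is shown since a single heat shock element, 18 bases at chr1:55088059-55088076, is the match in both genes. The line runs over chr1:55087898-55088147 on the plus strand, and capitals mark the fixed letters of the overlapping 3-block matches, which begin 89 bases before the Hspe1 start.
Hspe1: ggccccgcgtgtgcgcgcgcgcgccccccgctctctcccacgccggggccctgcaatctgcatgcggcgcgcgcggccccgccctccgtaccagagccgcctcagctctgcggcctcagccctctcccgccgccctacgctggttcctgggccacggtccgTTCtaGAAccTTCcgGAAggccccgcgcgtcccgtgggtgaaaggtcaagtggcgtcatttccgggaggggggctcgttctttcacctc

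The heat-inducible Hsp70 gene Hspa1b had the largest difference of the 70 members. It read 8.34, 8.60 and 8.45 in tumours and 7.01 and 6.57 in wild types. All tumours lay more than 1 log2 unit above both wild types, with means of 8.46 ± 0.13 (SD, n = 3) and 6.79 ± 0.31 (SD, n = 2), and the gene rose 3.19-fold (SE 0.16 on the log2 scale, limma adjusted p = 0.00912). Its neighbour and near-identical copy Hspa1a read 5.71, 5.72 and 5.82 against 5.42 and 5.49, below the lower quartile of every array, and passed with a difference of 0.29 (limma adjusted p = 0.0285). A signal that low leaves the size of the difference uncertain. The Hspa1b probe set without shared targets was as dim and gave 0.28 (limma adjusted p = 0.0437). The 300-base windows of the pair were identical at 296 positions, their start sites are 12918 bases apart, and a probe set designed for either gene may read both.

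The Hspa1b promoter is printed as that of the classic heat-inducible gene among the members, from chr17:34959239-34959488 on the minus strand. Capitals mark the fixed letters of the 2-block heat shock element that begins 104 bases before the start, at the same distance as in Hspa1a.
Hspa1b: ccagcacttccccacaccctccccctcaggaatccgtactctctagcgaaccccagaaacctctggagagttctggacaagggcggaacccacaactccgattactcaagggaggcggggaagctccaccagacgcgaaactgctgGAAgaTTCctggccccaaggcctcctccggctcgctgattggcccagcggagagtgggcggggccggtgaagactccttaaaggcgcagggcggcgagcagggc

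The heat-inducible list, chosen with earlier results of these data known, held 8 members and Hspa8, the constitutive Hsp70. Dnaja1, which fell and has a 2-block heat shock match (below), was not on the list. Without Hspa8, 4 of 8 passed as higher (Hspa1a, Hspa1b, Hspd1 and Hspe1) and 0 as lower by limma, in 7 all tumours lay above both wild types, and the median difference was 0.50. With it, the counts were 4 of 9 and 8, and the median was 0.49. Across all genes 11.3% passed as higher, and in 27% all tumours lay above both wild types. Of the 4 that passed, Hspa1a and Hspa1b may be read by the same probes, and Hspd1 was close to the threshold. Hsp90aa1, the inducible cytosolic Hsp90, read 10.30, 10.58 and 10.79 against 9.98 and 9.74 without overlap. Its difference of 0.70 (SE 0.18) missed the threshold (limma adjusted p = 0.0609). Hspa8 read 12.49, 12.79 and 12.59 against 12.25 and 12.02, again without overlap (difference 0.49, limma adjusted p = 0.0598). Both passed after quantile normalization, with limma adjusted p-values of 0.0210 and 0.0180, and with probe sets of low signal or tied values (below) left out. They missed the threshold with median centring, a trended robust prior, array weights, averaged probe sets and shared targets left out. The limma adjusted p-values there were 0.0524 to 0.169. Dnajb1, the heat-inducible J-domain partner of Hsp70, read 9.08, 9.19 and 9.10 in tumours and 8.94 and 9.08 in wild types, with tumour 16 level with wild type 62 (difference 0.12, limma adjusted p = 0.291). After quantile normalization Dnajb1 passed (difference 0.21, limma adjusted p = 0.0371), but with median centring it did not (limma adjusted p = 0.383).

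The immediate early genes, which respond within minutes to handling of tissue, had list means of 7.84, 8.02 and 8.09 in tumours against 7.45 and 8.04 in wild types, with 2 of 10 higher and 1 lower in limma's test. Their part in the heat shock values was not tested.

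Among the Hsp110 proteins, which exchange the nucleotide of Hsp70, Hspa4l rose. It read 7.29, 7.41 and 7.39 against 6.91 and 6.84 (difference 0.49, SE 0.05, limma adjusted p = 0.0111). Hsph1 read 8.36, 8.25 and 8.58 against 8.08 and 7.83, with no overlap but without passing (difference 0.44, limma adjusted p = 0.0921). Hspa4 read 9.40, 9.28 and 9.33 against 8.99 and 9.41, and the wild types spanned the tumours. Hspbp1, the exchange factor brought in by its symbol, rose from 7.37 and 6.97 in wild types to 7.70, 7.75 and 7.75 in tumours (limma adjusted p = 0.0477), and missed the threshold after quantile normalization (adjusted p = 0.0514).

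The small heat shock proteins, which hold unfolded proteins without using ATP, gave 0 of 5 measured members past limma's threshold, 0 at an unadjusted p below 0.05, and a median difference of 0.03. Hspb1, the one known in epithelia, read 8.39, 8.55 and 8.82 against 8.37 and 8.08, the lowest tumour being just above the higher wild type (difference 0.36, limma adjusted p = 0.216). Hspb2, Hspb3, Hspb7 and Hspb8, known mainly from muscle and nerve, had differences between 0.01 and 0.05. Hspa2 and Hspa1l, known from testis, had differences of 0.12 and 0.03, and Hspa12b of the endothelium -0.00. Hspa14, which works at the ribosome, had 0.29 and Hspb11 -0.13, neither past the threshold.

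Genes of the endoplasmic reticulum did not share a direction. Of 8 listed, 7 were measured, of which 1 rose (14.3%) and 2 fell (28.6%), against 11.3% and 10.5% of all genes. Hspa5, the Hsp70 of this compartment, read 10.48, 10.41 and 10.70 in tumours and 11.09 and 11.20 in wild types, every tumour being lower. It fell by 0.61 (SE 0.10, limma adjusted p = 0.0255), to means of 10.53 ± 0.15 (SD, n = 3) from 11.15 ± 0.07 (SD, n = 2). Hsp90b1, the Hsp90 of the same compartment, read 9.35, 9.70 and 9.92 against 9.42 and 8.43. Its wild types were 0.998 apart, the widest gap of the members, and the groups overlapped. The difference of 0.73 did not pass (limma adjusted p = 0.243). Its other probe set had a difference of -0.32, with the opposite sign.

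Dnajb9, a J-domain partner of Hspa5 that the unfolded protein response induces, had the largest fall of the members. Its log2 signal was 7.42, 8.07 and 7.75 in the tumours and 8.82 and 9.54 in the wild types. The groups did not overlap, although both were spread widely, with means of 7.75 ± 0.32 (SD, n = 3) and 9.18 ± 0.51 (SD, n = 2). Dnajb9 was 2.70-fold lower (difference -1.43, SE 0.30, limma adjusted p = 0.0416). Dnajc10, which reduces disulfide bonds of proteins bound for degradation, rose. It read 9.996, 10.02 and 9.71 against 8.77 and 9.003 (difference 1.02, SE 0.13, limma adjusted p = 0.0157). That probe set has shared targets, and the Dnajc10 probe set without them gave 0.12 (limma adjusted p = 0.468).

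Dnajb11, another Hspa5 partner, read 9.06, 8.85 and 8.92 in tumours and 9.11 and 9.22 in wild types, all tumours being lower, but did not pass (difference -0.22, limma adjusted p = 0.132). Dnajc3 had a difference of -0.15 and Dnajc1 of 0.04, neither past the threshold. The endoplasmic reticulum stress element was found in 3 of 58 members, Hspa5, Hsp90b1 and Dnajc3, against 0.137% of all genes. The members with the element therefore hold 1 that fell and 2 that did not pass. Dnajb9 held an E-box, which 8.09% of all genes had in their windows and 5 of 58 members.

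The Hspa5, Hsp90b1 and Dnajb9 promoters are shown as those of the compartment's Hsp70 and Hsp90 genes and of the J-domain gene that fell most. They span chr2:34771840-34772089 on the plus strand, chr10:86705445-86705694 on the minus strand and chr12:44210069-44210318 on the minus strand. Capitals mark the fixed letters of the stress element, at 65 bases before the start in Hspa5 and at 212 and 107 bases in Hsp90b1, and in Dnajb9 the E-box 107 bases before its start.
Hspa5: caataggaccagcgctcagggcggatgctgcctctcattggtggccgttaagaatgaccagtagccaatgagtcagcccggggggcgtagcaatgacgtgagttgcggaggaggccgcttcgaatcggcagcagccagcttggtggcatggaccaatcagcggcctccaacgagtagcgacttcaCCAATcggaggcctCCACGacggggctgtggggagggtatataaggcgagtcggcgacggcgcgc
Hsp90b1: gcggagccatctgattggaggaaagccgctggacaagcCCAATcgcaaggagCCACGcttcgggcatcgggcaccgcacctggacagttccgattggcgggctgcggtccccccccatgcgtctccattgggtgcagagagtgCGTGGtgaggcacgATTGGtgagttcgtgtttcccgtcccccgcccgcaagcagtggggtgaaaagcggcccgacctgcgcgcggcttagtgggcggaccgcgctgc
Dnajb9: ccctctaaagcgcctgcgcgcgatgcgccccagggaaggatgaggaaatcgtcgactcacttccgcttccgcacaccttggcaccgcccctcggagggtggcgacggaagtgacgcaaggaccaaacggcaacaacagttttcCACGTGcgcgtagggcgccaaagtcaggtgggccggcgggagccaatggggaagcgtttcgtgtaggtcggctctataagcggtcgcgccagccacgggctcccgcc

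**Figure D4:**
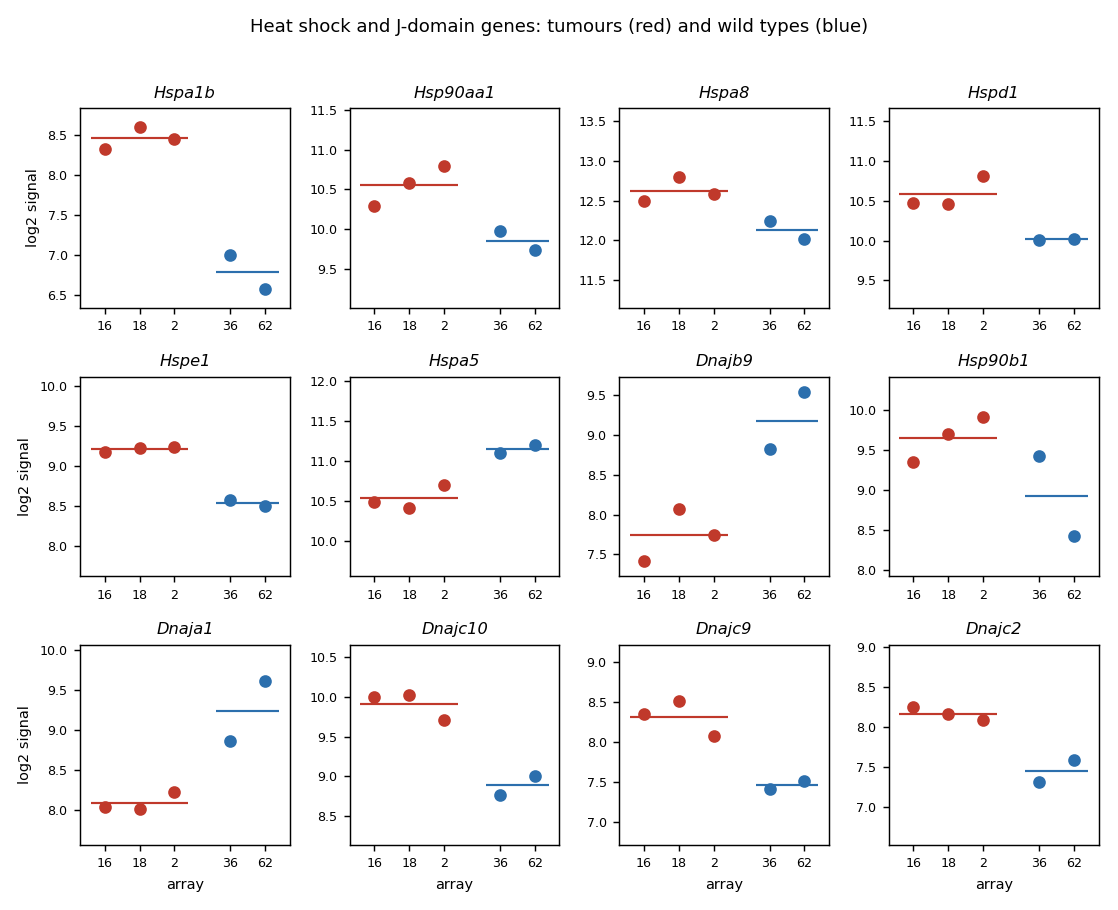
Log2 signal of 12 heat shock and J-domain genes on each array (points), with the group mean as a line, tumours in red and wild types in blue; panels have their own range and the same height in log2 units. Hspa5, Dnajb9 and Dnaja1 are the panels with tumours below both wild types, and Hsp90b1 is the panel in which the groups overlap.

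Of the J-domain genes outside the endoplasmic reticulum, Dnaja1 fell most. This cytosolic partner of Hspa8 read 8.04, 8.01 and 8.22 in tumours and 8.86 and 9.62 in wild types, with wild type 62 well above wild type 36. It was 2.22-fold lower (difference -1.15, SE 0.25, limma adjusted p = 0.0442). Dnajc13, which works on endosomes, fell by 0.63 from 7.82 and 7.96 in wild types to 7.34, 7.29 and 7.16 in tumours (limma adjusted p = 0.0141). Dnajc30, a mitochondrial J-domain protein, fell by 0.53, with tumours at 8.37, 8.31 and 8.56 and wild types at 8.99 and 8.90 (limma adjusted p = 0.0255).

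The Dnaja1 window is shown because it is the fall among members with a heat shock match. The line covers chr4:40722218-40722467 on the plus strand, upstream of the first of 3 starts listed, and capitals mark the fixed letters of a 2-block element that begins 124 bases before it. Of the 13 members with this 2-block form, 5 rose (Cct2, Hspa1a, Hspa1b, Hspd1 and Hspe1), Dnaja1 fell and 7 did not pass. Among all 58 members with a window 14 rose and 4 fell, and 11.3% of all genes rose and 10.5% fell. The 5 are not separate promoters, since Hspd1 and Hspe1 share their element and the Hspa1a and Hspa1b windows are identical at 296 of 300 positions. The part of the element in these rises was not tested.
Dnaja1: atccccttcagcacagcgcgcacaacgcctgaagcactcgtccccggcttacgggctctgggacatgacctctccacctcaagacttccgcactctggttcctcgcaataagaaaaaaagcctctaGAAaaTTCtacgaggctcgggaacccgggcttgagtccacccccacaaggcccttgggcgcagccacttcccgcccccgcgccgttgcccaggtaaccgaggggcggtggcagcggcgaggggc

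The rises in the J-domain group were all of the Dnajc class, in which 5 of 22 rose and 2 fell. These shares were 22.7% and 9.09%, against 11.3% and 10.5% of all genes. Dnajc9, which carries histones as well as binding Hsp70, read 8.36, 8.52 and 8.07 against 7.41 and 7.52 (difference 0.85, SE 0.15, limma adjusted p = 0.0263). Dnajc2, which sits on the ribosome, read 8.25, 8.17 and 8.09 against 7.31 and 7.59 (difference 0.72, SE 0.11, limma adjusted p = 0.0194). In both genes the groups were well apart. Dnajc12, a partner of the aromatic amino acid hydroxylases, read 6.62, 6.69 and 6.63 against 6.16 and 6.39 (difference 0.37, limma adjusted p = 0.0450), and Dnajc17, a nuclear protein, 6.72, 6.60 and 6.70 against 6.28 and 6.43 (difference 0.32, limma adjusted p = 0.0421). The Dnajc17 call was lost with median centring (limma adjusted p = 0.0501), with its probe sets averaged (difference 0.16, limma adjusted p = 0.0866) and with shared targets left out (difference 0.0076, limma adjusted p = 0.904).

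The Dnajb class had 0 of 12 members higher and 1 lower in limma's test, and in 5 of 12 all tumours lay below both wild types. That last share was 41.7%, against 23.7% of all genes. Dnajb4 read 7.02, 7.20 and 6.66 against 7.30 and 7.34 without overlap (difference -0.36, limma adjusted p = 0.234). Dnajb6, which keeps aggregating proteins soluble, read 8.63, 8.73 and 9.06 against 8.96 and 9.40, with tumour 2 above wild type 36 (difference -0.37, limma adjusted p = 0.267). Dnaja2 of the cytosol had a difference of -0.28 and Dnaja3 of the mitochondria 0.20. The 29 Dnaj members that did not pass had differences between -0.37 and 0.28, the upper end being Dnajc11 of the mitochondrial membrane.

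Co-chaperones and folding factors outside the symbol pattern, in a list of 76 genes of which 72 were measured, gave 10 higher (13.9%) and 6 lower (8.33%), near the background of 11.3% and 10.5%. Among those that rose, Sil1, the exchange factor of Hspa5, read 8.58, 8.81 and 8.45 against 7.51 and 7.55 (difference 1.09, limma adjusted p = 0.0111). Ahsa1, the activator of the Hsp90 ATPase, read 9.31, 9.27 and 9.22 against 8.45 and 8.19 (difference 0.95, limma adjusted p = 0.00882). Unc45a, a myosin chaperone, rose by 0.65, Sec61b of the translocon by 0.51, Stip1, which joins Hsp70 to Hsp90, by 0.46, and the tubulin cofactor Tbcd by 0.46.

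The falls in that list were led by protein disulfide isomerase, P4hb, which forms disulfide bonds in the endoplasmic reticulum. It read 11.26, 11.51 and 11.57 in tumours against 13.11 and 12.51 in wild types (difference -1.37, limma adjusted p = 0.0221). Herpud1 and Edem1, both of the pathway that degrades misfolded proteins of that compartment, fell by 0.84 and 0.80, and Mkks, a chaperonin-like protein of the cilium base, by 0.65. Edem1 read 7.54, 7.69 and 7.57 against 8.31 and 8.48 (limma adjusted p = 0.00971). Sorted by role after the values were seen, the 21 endoplasmic reticulum factors had 2 higher and 3 lower, with all tumours below both wild types in 8 and above in 2. The 14 measured partners of Hsp90 and Hsp70 had 5 higher and 0 lower by limma, with all tumours above in 7. Across all genes 11.3% passed as higher and 10.5% as lower, with all tumours above in 27% and below in 23.7%. A difference between these roles was not tested.

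Many members have more than 1 probe set, and these did not always read the same. The 70 members had 146 probe sets, and 42 members had several. Tested one by one over all 22626 probe sets, 9.58% passed as higher and 8.72% as lower. Besides the probe sets used above, 6 of 15 further Cct probe sets passed as higher and 0 as lower, with a median difference of 0.48. All 6 have shared targets and belong to Cct2, Cct3 and Cct4, which had already passed. In the Hsp group 3 of 24 further probe sets were higher and 0 lower, with a median of 0.21. For the Dnaj group the counts were 3 of 37 higher and 1 lower, with a median of -0.00.

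Cct2 was higher with each of its 3 probe sets, by 1.15, 1.07 and 0.83. Cct3 had 6, with differences from 1.50 down to -0.10, the lowest being a probe set near the lower quartile of the arrays. Hspa1b showed 1.67, 0.55 and 0.28, the dimmer ones giving the smaller differences. Hspe1 showed 0.67 and 0.06, and Dnajc10 1.02, 0.56 and 0.12. Dnaja1 was lower with both of its probe sets, with differences of -1.15 and -1.35. Hspa4, which did not pass above, had a second probe set with a difference of 0.86 (limma adjusted p = 0.0253 over probe sets).

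**Figure D5:**
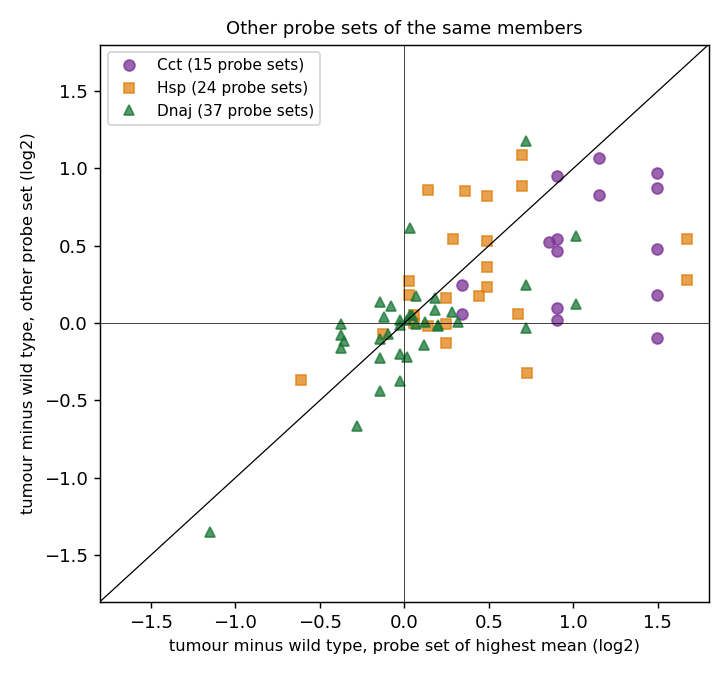
Difference between tumours and wild types in log2 signal for each further probe set of a member (vertical) against the difference of the probe set used for that member (horizontal), with the diagonal of equal values; 15 Cct, 24 Hsp and 37 Dnaj probe sets are drawn. Most Cct points lie above 0 but below the diagonal, and the Hsp90b1 point at -0.32 is the one far below 0 on the right.

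With all shared-target probe sets left out of the choice, Cct5, Cct7 and Tcp1 passed, so that 3 of 8 measured Cct genes were higher. Cct2 and Hspa5 have no probe set without such an ending. The Hsp genes that rose went from 6 of 23 to 2 of 18, and the Dnaj genes from 5 of 38 to 1 of 37. Over all genes, 870 of 10529 passed as higher in that setting, against 1395 of 12393 before. Hspa4l then had a difference of 0.23 (limma adjusted p = 0.183), Dnajc10 of 0.12 (limma adjusted p = 0.468) and Dnajc2 of 0.25 (limma adjusted p = 0.124). Hspd1, Hspbp1, Dnajc12 and Dnaja1 kept their probe set and difference but missed the threshold in that smaller set of genes, with limma adjusted p-values between 0.0504 and 0.0546.

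The calls also depended on single arrays. Without tumour 16, 18 or 2 in turn, 5, 6 and 15 of the 22 called members still passed. Without wild type 36 or 62 a fit has 1 wild-type array, and the median Cct difference was 0.65 and 0.95. All 22 kept their direction in each of these fits, but their groups did not overlap, so leaving out 1 array could not change it. Tcp1, Dnajb9, Dnajc12 and Dnajc17 passed in 0 of these 5 limma fits. For 1329 of the 12393 genes, 4 of them members, the probe set had tied values, meaning 1 identical value on every array of a group. Values identical on only some arrays were not counted as tied. Examples are Cct6a (9.16835) and Dnajb1 (9.0767), each identical in tumour 16 and wild type 62. The origin of identical values is not known, so arrays called level above may owe this to processing. Without tumour 16, 18 or 2, 719, 1033 and 2380 of all genes passed in limma. With tied probe sets left out as well, these numbers were 1507, 1830 and 3069. The calls thus depended on the tied values as well as on single arrays. Leaving out probe sets with tied values together with each array, Cct2, Cct3, Cct4, Hspa1b and Hspe1 passed in all 5 fits. Over the members, the median distance between the wild types was 0.15 and the median range of the tumours 0.16. In 27 of 70 members the wild types lay further apart than the groups did. That 0 of them were called follows from the test, since such a gap widens its standard error.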

How the data were processed

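Total RNA from microdissected epithelium was labelled by a small-sample amplification protocol and hybridised to Affymetrix arrays, per the labels' protocols. The authors deposited log2 signals for 22690 probe sets on 5 arrays. They used the R package affy, per the submitters' processing notes; how background was corrected, probes summarised and arrays normalized is not given in the sources used here. Deposited values run from 3.38 to 14.3 and were used as they stand, without further normalization.

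From these values, 64 control probe sets were left out. Of the other 22626, 20380 carry 1 gene symbol in the platform annotation, 691 several and 1555 none. The probe set with the highest mean over the arrays stood for its gene, giving 12393 genes, all tested with limma 3.58.1 (R 4.3.3, statmod 1.5.0) as 3 tumours against 2 wild types with Benjamini-Hochberg adjustment over all genes. The fit had 3 residual degrees of freedom, and its script was tested on simulated data. Members named are the 9 chaperonin genes, a fixed list of chaperones by role, and the largest rises, falls and a few not passed in each group. The members and lists were chosen with earlier results of these data known. Alternatives were quantile normalization, median centring, a filter on low probe sets, a trended robust prior, array weights, the mean of all probe sets, probe sets with shared targets or tied values left out, a 2-fold minimum, and each array left out. Promoter sequences and gene models come from RefSeq on GRCm38.p6; protein sequences were not used here.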

Additional observations from a re-analysis of the deposited data

How the results depend on the processing

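All 22 called members kept their direction with each array left out, as genes whose groups do not overlap must, but their calls depended on the array. Leaving out probe sets with shared targets gave 870 of 10529 genes higher, 3 Cct, 2 Hsp and 1 Dnaj members higher, and 0 Hsp members lower. A 2-fold minimum left 428 genes higher and 557 lower, 2 Cct, 1 Hsp and 1 Dnaj members higher, 0 Hsp and 2 Dnaj members lower, and 1 co-chaperone each way. With each array left out, tied probe sets kept or removed (the latter added after the data were seen), all genes called higher ranged from 0 to 1664 and lower from 0 to 1405. In those fits Cct members higher ranged from 0 to 7, Hsp members higher from 0 to 5 and lower from 0 to 1, Dnaj members higher from 0 to 4 and lower from 0 to 3, and co-chaperones higher from 0 to 11 and lower from 0 to 8. Without wild type 36 or 62 a fit has 1 wild-type array, assumed to vary like the tumours. The median difference of the Cct group was 0.650 when probe sets were averaged, 0.396 without shared targets and 0.646 to 0.946 with each array left out. That of the Hsp group was 0.444 without low probe sets, 0.187 without shared targets and 0.224 to 0.398 with each array left out. That of the Dnaj group was -0.075 without low probe sets and -0.0666 to -0.0141 with each array left out. Cct6b turned to -0.00395 with median centring and Dnajb1 to -0.0138 when probe sets were averaged. The cause of these shifts was not tested. No paired analysis was possible because the tumours came from Apc1638N mice and the wild-type samples from other animals. Array signals near the lower quartile limit what the dim members can show.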
